A study of Mus musculus with 12 samples.

Results

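The 44 genes described here encode the machinery of mitosis: the cyclins and kinases that start it, the kinetochore proteins and motors that move chromosomes, the checkpoint that watches attachment, the trigger of anaphase, and the proteins that condense chromosomes and divide the cell. They were chosen by name, and all probes whose transcript accession maps to one of them, older aliases included, were taken. On the arrays for vitamin C 67 of 41174 probes belonged to 43 of these genes, and on the arrays for retinoic acid 58 of 55681 probes belonged to all 44. Prc1, a microtubule-bundling protein of the central spindle, had no matched probe among the vitamin C arrays. Each of the other genes passed the filter on dim probes, so 43 of the 14531 genes tested in the vitamin C comparison and 44 of the 16015 tested in the retinoic acid comparison were mitosis genes.

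The cells were J1 mouse embryonic stem cells, adapted to gelatin and kept in serum replacement medium with leukaemia inhibitory factor (LIF) at 1000 U/ml, the cytokine that holds them undifferentiated, in all 4 groups. For 24 h they received vitamin C (VC, 50 µg, a mass for which the labels give no volume) or 1 µL of its ddH2O control, and retinoic acid (RA, 1 µM) or 1 µL of its DMSO control. Each group held 3 samples, each on its own single-colour Agilent array, and VC and ddH2O were on another array design than RA and DMSO, so no level was compared across them. Nothing in the labels tells if samples sharing a group came from separate cultures, so each p-value reflects sample-to-sample spread that may be technical. The series title asks which genes VC and RA regulate.

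Mitosis is driven by Cdk1 bound to cyclins A and B, and it ends when the anaphase-promoting complex (APC/C) with its activator Cdc20 marks cyclin B and securin for destruction, which frees separase to cut the cohesin rings that hold sister chromatids together. The transcripts of most of these proteins build up late in the cell cycle, through promoters that often carry CCAAT boxes, bound by NF-Y, and a CHR element with the letters TTTGAA, bound by the DREAM and MuvB complexes. Mouse embryonic stem cells divide fast with short gap phases, and retinoic acid is widely used to make them differentiate.

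Both motifs were frequent in the promoters. RefSeq promoter windows (GRCm38.p6, 250 bases before to 50 after a start) were found for 36 of the 44 genes, 39 windows in all. Ccna2, Cdc25c, Aurkb, Incenp, Spc24, Tpx2, Kif20a and Smc4 had none in the table. CCAAT, searched on both strands, was in 30 of the 39 windows (76.9%), against 37.4% of all 32851 windows in the table. TTTGAA, also on both strands, was in 28 (71.8%), against 17.9% of all windows, and 25 windows (64.1%) held both, against 6.95%. A window with at least 2 CCAAT matches was found 19 times (48.7%), against 11.7% of all windows. Neighbouring matches of the 2 motifs can share at most 1 base, and a match describes the sequence and is no measured binding site. The 4 windows below are shown because they carry the contrasts of the results: Top2a (chr11:99024140-99024439, minus strand), the window richest in matches among them, and Ccnb2 (chr9:70421505-70421804, minus strand), both of genes lower in RA; Cdc20 (chr4:118437294-118437593, minus strand), higher in VC and lower in RA; and Pttg1 (chr11:43425932-43426231, minus strand), which fell furthest in RA and holds neither motif. Neither call of Cdc20 held under every way of processing, as given below. The 4 windows are written 5′ to 3′ on the gene's strand, and capitals mark the matches to either motif on either strand.
Top2a: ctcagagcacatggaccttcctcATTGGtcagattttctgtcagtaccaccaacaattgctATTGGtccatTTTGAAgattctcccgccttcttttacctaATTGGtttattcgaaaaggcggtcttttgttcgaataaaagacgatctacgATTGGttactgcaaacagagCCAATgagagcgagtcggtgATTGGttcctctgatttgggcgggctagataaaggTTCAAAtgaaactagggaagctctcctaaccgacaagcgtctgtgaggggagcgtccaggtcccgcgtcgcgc
Ccnb2: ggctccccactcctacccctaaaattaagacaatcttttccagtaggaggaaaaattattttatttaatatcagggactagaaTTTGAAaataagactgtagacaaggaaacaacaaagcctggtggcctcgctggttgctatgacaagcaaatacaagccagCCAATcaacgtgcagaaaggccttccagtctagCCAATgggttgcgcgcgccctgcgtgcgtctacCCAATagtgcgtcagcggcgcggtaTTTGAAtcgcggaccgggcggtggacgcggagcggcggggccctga
Cdc20: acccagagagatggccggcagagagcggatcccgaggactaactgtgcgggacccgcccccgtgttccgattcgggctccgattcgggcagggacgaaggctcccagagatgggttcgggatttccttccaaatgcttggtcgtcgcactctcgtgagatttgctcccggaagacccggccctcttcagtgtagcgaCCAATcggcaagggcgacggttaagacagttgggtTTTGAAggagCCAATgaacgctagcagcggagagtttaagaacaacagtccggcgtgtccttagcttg
Pttg1: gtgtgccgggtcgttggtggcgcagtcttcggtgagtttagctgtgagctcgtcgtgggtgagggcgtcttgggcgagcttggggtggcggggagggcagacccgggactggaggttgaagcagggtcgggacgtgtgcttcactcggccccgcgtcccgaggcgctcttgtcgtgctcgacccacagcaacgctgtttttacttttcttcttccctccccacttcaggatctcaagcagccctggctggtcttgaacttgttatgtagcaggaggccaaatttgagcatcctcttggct
The genes with neither motif in their windows were Birc5, Mad2l1, Ncaph, Nuf2, Plk4 and Pttg1, and they include both the gene that fell furthest in RA and one whose brightest probe rose.

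Most mitosis genes were lower in RA than in DMSO, by modest amounts. Of the 44 genes 37 (84.1%) were called lower, 3 were called higher and 4 were not called, where a call is a limma adjusted p under 0.05 over all genes tested. Over all genes, 42.2% were called lower and 35.8% higher. The median log2 difference of the 44 genes was -0.52, against -0.08 for all genes tested. Only 6 fell by at least 2-fold, among which were Pttg1, the securin, and Espl1, separase, and none rose as far, where 15.1% of all genes fell and 17.4% rose by at least 2-fold. In 38 genes every RA array was below every DMSO array and in 3 every RA array was above, where 44.4% and 37.3% of all genes had arrays that did not overlap in these directions. The mean deviation of the 44 genes from the DMSO mean was between -0.58 and -0.46 log2 on the 3 RA arrays, and between -0.01 and 0.01 on the 3 DMSO arrays. In RNA from whole cultures, fewer cells in mitosis and less RNA per cell cannot be told apart. All RA arrays were on one slide and all DMSO arrays on another, so slide and treatment cannot be told apart.

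The size and count of these falls moved with the scaling of the arrays, and the direction of the median did not. Values here are log2 signals with each array scaled at its 75th percentile. With each array's median in its place 40 genes were lower and 1 higher, where 54.8% of all 16015 genes were lower and 3982 genes higher. The median log2 difference was then -0.85, against -0.41 for all genes tested. Scaled on the spike-in spots, 39 were lower and none was higher (median -0.90, all genes -0.46), where 48.6% of all genes were lower and 3133 higher. After quantile normalization 26 were lower and 5 higher (median -0.23, all genes -0.03), where 38.5% of all genes were lower and 5668 higher. The authors' series values gave 25 lower and 5 higher (median -0.26, all genes -0.04), where 38.7% of all genes were lower and 5631 higher. Under all 6 scalings 25 genes were called lower, and none was called higher under all of them. The sign of the difference changed between scalings for 12 genes: Bub3, Cdc20, Cdc25b, Cdk1, Cenpe, Incenp, Kif20a, Mad2l1, Ncapg, Ncaph, Smc4 and Spc25. The slide and scaling values set limits that hold for each RA result below.

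**Figure D1:**
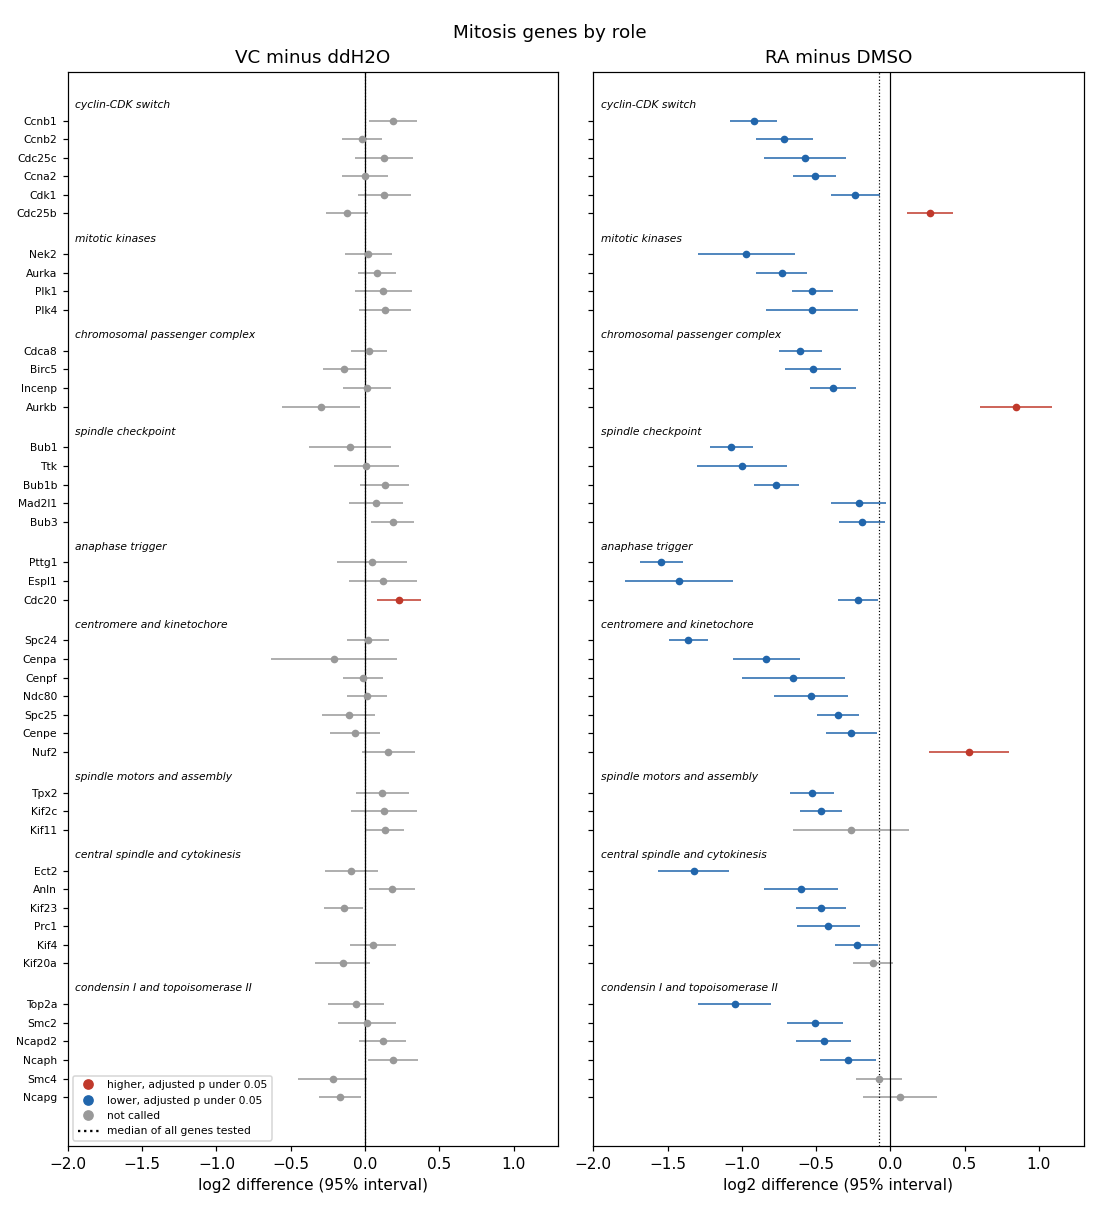
Log2 difference of each gene (x axis, points, with 95% limma intervals) for VC minus ddH2O (left panel) and RA minus DMSO (right panel), with the genes on the y axis grouped by role and coloured by call; the dotted line is the median of all genes tested. In RA 37 of 44 genes are called lower and 3 higher, and in VC Cdc20 is the 1 gene called. Prc1 has no point in VC.

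In the cyclin and CDK switch 5 of 6 genes were lower in RA and 1 was higher, with a median log2 difference of -0.54. Ccnb1, cyclin B1, the partner of Cdk1, had log2 signals of 13.21, 13.16 and 13.32 on the RA arrays, against 14.12, 14.16 and 14.16 on the DMSO arrays. All RA arrays were low, and the difference was -0.92 (SE 0.07, limma adjusted p = 3.18e-05). Ccnb2, cyclin B2, differed by -0.71, Cdc25c, a phosphatase that activates Cdk1, by -0.58, and Ccna2, cyclin A2, by -0.51, each called lower and each lower under every scaling. Cdc25b, the phosphatase that starts Cdk1 activation, went the other way, with 10.32, 10.34 and 10.22 in RA, against 10.08, 9.98 and 10.01 in DMSO. Its arrays did not overlap and its difference was 0.27 (SE 0.07, limma adjusted p = 0.00901), but scaling by medians gave -0.07 and by spike-in spots -0.12, neither of them called.

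Cdk1, the kinase itself, depended on the probe. Its brightest probe read 11.95, 11.79 and 11.79 in RA, against 12.06, 12.08 and 12.10 in DMSO, a difference of -0.24 (SE 0.07, limma adjusted p = 0.0173). A dimmer probe read 8.15, 8.03 and 7.79 in RA, against 7.10, 7.17 and 7.38 in DMSO, a difference of 0.78 that was called higher across all probes (limma adjusted p = 0.00146). The third probe overlapped between the groups and differed by -0.17, which was not called. The probes of Cdk1 therefore give no single direction, and which transcript each one reads was not tested.

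All 4 of the other mitotic kinases were lower in RA, with a median of -0.63, and all 4 were lower under each scaling. Plk1, the polo kinase that drives centrosome maturation and mitotic entry, had 13.67, 13.61 and 13.67 in RA, against 14.20, 14.20 and 14.13 in DMSO (difference -0.53, SE 0.06, limma adjusted p = 0.000207). Nek2, which loosens the link between centrosomes, had 9.89, 10.09 and 9.57 in RA, against 10.86, 10.80 and 10.79 in DMSO (difference -0.97, SE 0.13, limma adjusted p = 0.000671). For both kinases each RA array was below the lowest DMSO array. Aurka, the spindle pole Aurora kinase, differed by -0.73, and Plk4, the kinase that licenses centriole duplication, by -0.52.

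Of the 4 genes of the chromosomal passenger complex, which corrects faulty kinetochore attachments, 3 were called lower and 1 higher. Its kinase subunit Aurkb had log2 signals of 6.70, 6.72 and 6.47 in RA, against 5.93, 5.72 and 5.71 in DMSO. The arrays did not overlap, and with a difference of 0.85 (SE 0.10, limma adjusted p = 0.00033) Aurkb was 1.80-fold higher in RA. The other 3 subunits were lower: Cdca8 (borealin) by -0.61, Birc5 (survivin) by -0.52 and Incenp, the scaffold, by -0.38 as log2 differences. Birc5 had 14.89, 14.72 and 14.89 in RA, against 15.27, 15.38 and 15.40 in DMSO (SE 0.08, limma adjusted p = 0.000941). Aurkb stayed above 0 in every scaling, at 0.46 to 0.85, and lost its call under spike-in scaling (limma adjusted p = 0.0875). It was read by 1 probe in RA, so no other probe bears on it. That probe was the dimmest of those that stand for the 44 genes (mean log2 signal 6.21), though well above background on all 6 arrays.

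All 5 genes of the spindle checkpoint, which holds back anaphase until every kinetochore is attached, were lower in RA (median -0.77). Bub1, a kinetochore kinase that recruits the other checkpoint proteins, had 11.31, 11.36 and 11.28 in RA, against 12.35, 12.38 and 12.45 in DMSO. Its difference of -1.07 (SE 0.06, limma adjusted p = 1.15e-05) makes it 2.10-fold lower. Ttk, the kinase that starts checkpoint signalling, had 8.38, 8.57 and 8.09 in RA, against 9.31, 9.37 and 9.35 in DMSO (difference -0.998, SE 0.12, limma adjusted p = 0.000412). These RA and DMSO values lie far apart beside the spread among arrays, which is not so for the inhibitor Mad2l1. Mad2l1, which with Bub1b binds and blocks Cdc20, had 11.42, 11.45 and 11.30 in RA, against 11.71, 11.54 and 11.56 in DMSO (difference -0.21, SE 0.08, limma adjusted p = 0.0407). Bub1b differed by -0.77 and Bub3 by -0.19. Mad2l1 and Bub3 lost both call and sign under quantile normalization, at 0.06 and 0.13.

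The 3 genes of the anaphase trigger had a median of -1.42 and included the furthest falls. Pttg1, securin, which holds separase inactive, had log2 signals of 13.43, 13.47 and 13.48 in RA, against 14.94, 15.05 and 15.02 in DMSO. Every RA array was far below every DMSO array, and Pttg1 was 2.91-fold lower (difference in log2 -1.54, SE 0.06, limma adjusted p = 2.43e-06). Its dimmer probe gave a difference of -1.47. Espl1, separase, had 10.20, 10.28 and 9.72 in RA, against 11.48, 11.48 and 11.52 in DMSO. The RA arrays varied more than the DMSO arrays, without overlap, and Espl1 was 2.68-fold lower (difference in log2 -1.42, SE 0.15, limma adjusted p = 0.000187). Both kept their calls under each scaling, from -1.93 to -1.20 for Pttg1 and from -1.81 to -1.23 for Espl1. Cdc20, the APC/C activator, had 14.54, 14.57 and 14.63 in RA, against 14.80, 14.81 and 14.80 in DMSO (difference -0.22, SE 0.06, limma adjusted p = 0.0112). It lay at 0.10 after quantile normalization and at 0.12 in the authors' series values, not called in either.

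**Figure D2:**
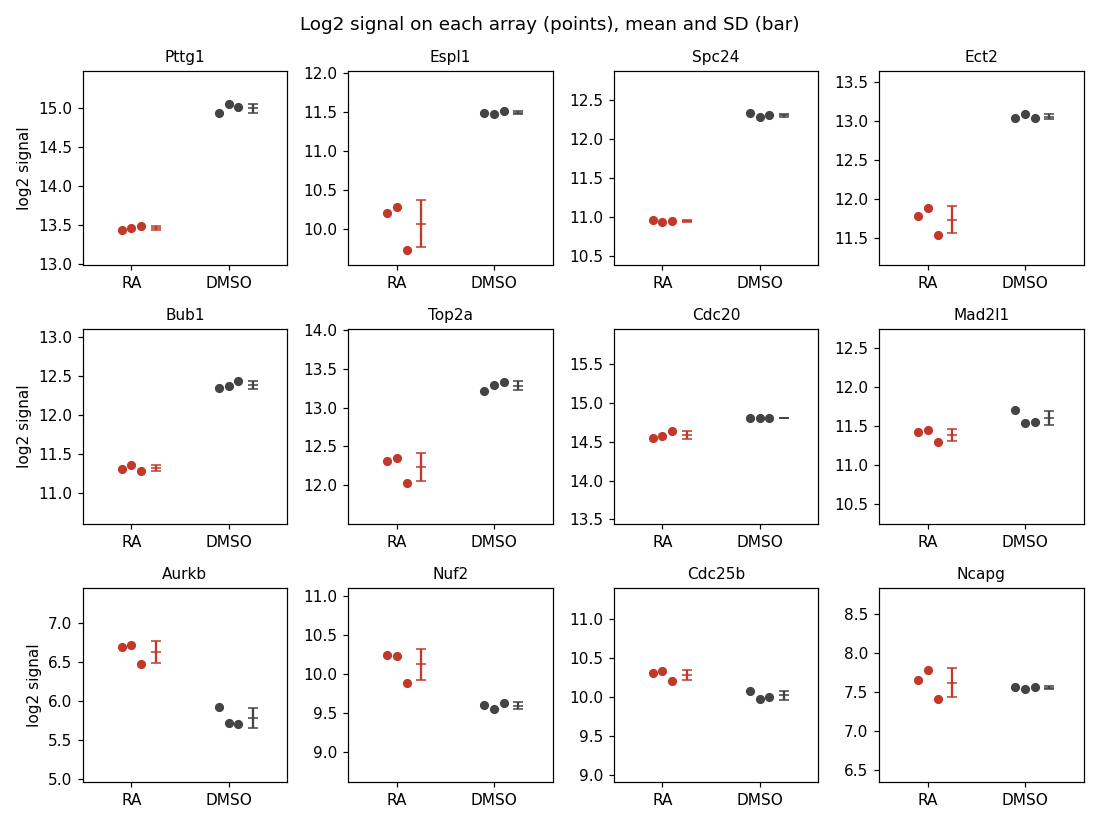
Log2 signal (y axis, each panel spanning the same height) on each RA array (red points, left) and each DMSO array (grey points, right) for 12 genes, with the mean and SD beside the points. Pttg1 sits at 13.43 to 13.48 in RA and 14.94 to 15.05 in DMSO. The points of Aurkb, Nuf2 and Cdc25b, each gene read by its brightest probe, are higher in RA, and the arrays of Ncapg overlap.

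At the centromere and kinetochore 6 of 7 genes were lower in RA and 1 was higher (median -0.54). Spc24, a subunit of the NDC80 complex that grips microtubules, had 10.96, 10.93 and 10.94 in RA, against 12.33, 12.29 and 12.30 in DMSO. The arrays within each group were nearly equal, and Spc24 was 2.57-fold lower (difference in log2 -1.36, SE 0.05, limma adjusted p = 2.59e-06). The other 3 subunits did not follow at that size: Ndc80 had 9.61, 9.96 and 9.69 in RA, against 10.32, 10.23 and 10.32 in DMSO (difference -0.54, SE 0.10, limma adjusted p = 0.00317), and Spc25 differed by -0.35. Nuf2 was called higher on its brightest probe, with 10.25, 10.23 and 9.88 in RA, against 9.60, 9.55 and 9.63 in DMSO (difference 0.53, SE 0.11, limma adjusted p = 0.00452). A dimmer probe of Nuf2 had 5.62, 5.95 and 5.35 in RA, against 6.35, 6.38 and 6.79 in DMSO, and was called lower across all probes (difference -0.87, limma adjusted p = 0.00652). The brightest probe also lost its call under median scaling (0.19, limma adjusted p = 0.221) and spike-in scaling (0.14, limma adjusted p = 0.602). Nuf2 therefore has no single direction either. Cenpa, the histone variant that marks the centromere, had 12.39, 12.43 and 12.14 in RA, against 13.11, 13.20 and 13.15 in DMSO (difference -0.83, SE 0.09, limma adjusted p = 0.000248). Cenpf, a kinetochore protein of late cycle, differed by -0.65 and the kinesin Cenpe by -0.26. Cenpf was read by 1 dim probe (mean log2 signal 6.84), and with normexp its difference was -0.21, still called lower.

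Spindle assembly and cytokinesis genes were lower with 2 exceptions that were not called. Tpx2, which activates Aurora A on the spindle, differed by -0.53, and Kif2c, a kinesin that takes microtubules apart, by -0.47. Kif11, the motor that pushes spindle poles apart, had 10.09, 9.76 and 10.41 in RA, against 10.36, 10.30 and 10.39 in DMSO, with overlapping arrays (difference -0.26, SE 0.16, limma adjusted p = 0.177). Among 6 genes of the central spindle and cytokinesis 5 were lower (median -0.44). Ect2, the exchange factor that turns on RhoA at the division site, had 11.77, 11.89 and 11.54 in RA, against 13.04, 13.10 and 13.04 in DMSO. It was 2.50-fold lower (difference in log2 -1.32, SE 0.10, limma adjusted p = 3.86e-05), well beyond the spread of either group. Anln, the ring scaffold anillin, differed by -0.60, the kinesin Kif23 by -0.47, Prc1 by -0.42 and the chromokinesin Kif4 by -0.23. Kif20a, a kinesin of the central spindle, differed by -0.12 and was not called (limma adjusted p = 0.0946), although its arrays did not overlap. Median scaling called it lower, at -0.45 (limma adjusted p = 0.000742), as did spike-in scaling and normexp. Quantile normalization called it higher, at 0.22 (limma adjusted p = 0.0137), as did the authors' series values. Kif20a therefore has no single direction.

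Of the condensin I and topoisomerase II genes, which compact and untangle chromosomes, 4 of 6 were lower in RA (median -0.37). Top2a, topoisomerase II alpha, had 12.31, 12.36 and 12.03 in RA, against 13.22, 13.30 and 13.32 in DMSO, and was 2.07-fold lower (difference in log2 -1.05, SE 0.10, limma adjusted p = 0.000129). The condensin subunits Smc2 (-0.51), Ncapd2 (-0.45) and Ncaph (-0.29) were called lower. Smc4 (-0.08, 95% interval -0.23 to 0.08) and Ncapg (0.06, 95% interval -0.19 to 0.31) were not called, and their arrays overlapped. Smc4 turned with the scaling. Median scaling called it lower, at -0.41 (limma adjusted p = 0.00202), as did normexp. Quantile normalization called it higher, at 0.25 (limma adjusted p = 0.0107), as did the authors' series values. Ncapg was read by 1 dim probe in RA (mean log2 signal 7.59), so no other probe bears on it. Ncapg was called under no scaling. The subunits of this complex thus did not all pass the test, and which of them did depended on the scaling.

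Taking every probe, 47 of 58 were lower in RA, 4 were higher and 7 were not called, where 39.8% of all 26649 probes tested were lower and 34.7% higher. Of 10 genes with several probes 8 had all probes on the same side of 0. Only Cdk1 and Nuf2 had probes called in opposite directions. Sizes differed between probes even where the sign was shared: Cdca8 gave -0.61 on the brightest probe and -1.18 on the other, Tpx2 -0.53 and -0.99, and Ccnb1 -0.92 with -1.23 and -0.73. Kif2c gave -0.47 on the brightest probe and -0.16 on the other, which overlapped and was not called (limma adjusted p = 0.188). Mad2l1 gave -0.21 on the brightest probe, and -0.47 (not called) and -0.80 (called lower) on dimmer ones.

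**Figure D3:**
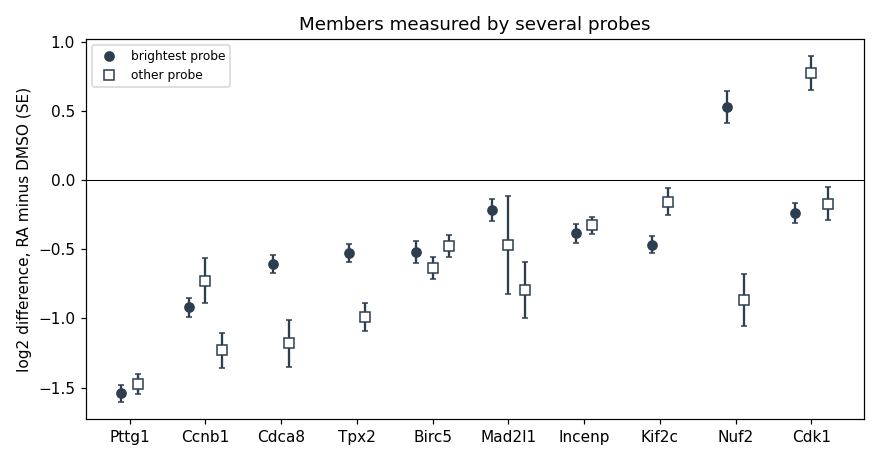
Log2 difference, RA minus DMSO (y axis, with SE), for each probe of the 10 genes with several probes (x axis); filled circles are the brightest probe and open squares the others. Pttg1 has both probes near -1.5, and Cdk1 and Nuf2 have probes on both sides of 0.

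In VC the mitosis genes moved little. Cdc20 was the 1 gene of 43 called higher and none was called lower by limma, where 6.41% of all genes were called higher and 10.5% lower. At an unadjusted p under 0.05 there were 9. The median log2 difference was 0.02, against -0.0005 for all genes tested, and the differences ran from -0.29 for Aurkb to 0.23 for Cdc20. No 95% interval of a mitosis gene reached beyond -0.63 or 0.38, so a 2-fold change lay outside each of them, where 0.0138% of all genes rose and 0.268% fell by at least 2-fold. In 10 genes every VC array was above every ddH2O array and in 5 every VC array was below, where 20% and 22% of all genes had arrays that did not overlap in these directions. The mean deviation of the 43 genes from the ddH2O mean was between 0.01 and 0.02 log2 on the 3 VC arrays, and between -0.01 and 0.01 on the 3 ddH2O arrays.

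Cdc20 had log2 signals of 15.07, 14.97 and 15.03 in VC, against 14.73, 14.79 and 14.87 in ddH2O. The VC arrays were all above the ddH2O arrays, and Cdc20 was 1.17-fold higher (difference in log2 0.23, SE 0.06, limma adjusted p = 0.0486). The call was narrow: it was lost whenever any 1 of the 6 samples was left out, when the difference was 0.20 to 0.27. VC and ddH2O arrays were spread over 3 slides, of which 1 held both groups. With slide as a block, which takes the difference within that slide, Cdc20 differed by 0.19 (limma adjusted p = 0.193).

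Among the remaining cyclin and kinase genes in VC, Ccnb1 had 12.53, 12.48 and 12.67 in VC, against 12.34, 12.42 and 12.34 in ddH2O. These arrays did not overlap, and the difference of 0.19 (SE 0.07) was not called (limma adjusted p = 0.0998), nor were those of its other probes, 0.18 and 0.22. Cdk1 had 12.36, 12.29 and 12.27 in VC, against 12.26, 12.04 and 12.23 in ddH2O (difference 0.13, SE 0.08, limma adjusted p = 0.266). Plk1 differed by 0.12 (SE 0.08, limma adjusted p = 0.313) with arrays that overlapped.

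Aurkb, which had the lowest difference in VC, read 10.38, 10.42 and 10.13 in VC, against 10.77, 10.56 and 10.48 in ddH2O. Its VC arrays were all below its ddH2O arrays, and the difference of -0.29 (SE 0.11) was not called (limma adjusted p = 0.11). Birc5 read 15.14, 15.19 and 15.05 in VC, against 15.26, 15.31 and 15.23 in ddH2O (difference -0.14, SE 0.06, limma adjusted p = 0.158). After quantile normalization Birc5 was called lower, at -0.23 (limma adjusted p = 0.0463), and under no other scaling was it called. Within the 1 slide that held both groups Aurkb differed by -0.12.

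None of the kinetochore, checkpoint or chromosome genes was called in VC with arrays scaled at the 75th percentile. Bub3 differed by 0.19 (95% interval 0.04 to 0.33), Ncaph by 0.19 (0.02 to 0.36) and Ncapg by -0.17 (-0.31 to -0.03), each with arrays that did not overlap. With each array's median as the scale Bub3 was called higher (limma adjusted p = 0.0431), and Ncapg was called lower after quantile normalization (limma adjusted p = 0.0436) and in the authors' series values (limma adjusted p = 0.0447). Smc4 differed by -0.22 (95% interval -0.45 to 0.02). Mad2l1 read 9.78, 9.71 and 9.79 in VC, against 9.77, 9.74 and 9.54 in ddH2O (difference 0.07, SE 0.08, limma adjusted p = 0.526). Ndc80 differed by 0.02 (SE 0.06, limma adjusted p = 0.872) and Top2a by -0.06 (SE 0.08, limma adjusted p = 0.618), both with overlapping arrays. Cenpa read 11.06, 10.94 and 10.39 in VC, against 11.12, 10.98 and 10.91 in ddH2O. VC replicate 3 alone was low, and the difference of -0.21 (SE 0.18, limma adjusted p = 0.446) was not called. That array was on a slide of its own and was the only array of this comparison scanned on another day. Of 67 mitosis probes tested none was called in either direction by limma, where 2.95% of all 27973 probes were called higher and 5.37% lower. At an unadjusted p under 0.05 there were 12. Of 19 genes with several probes 13 had all probes on the same side of 0 and 6 did not.

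**Figure D4:**
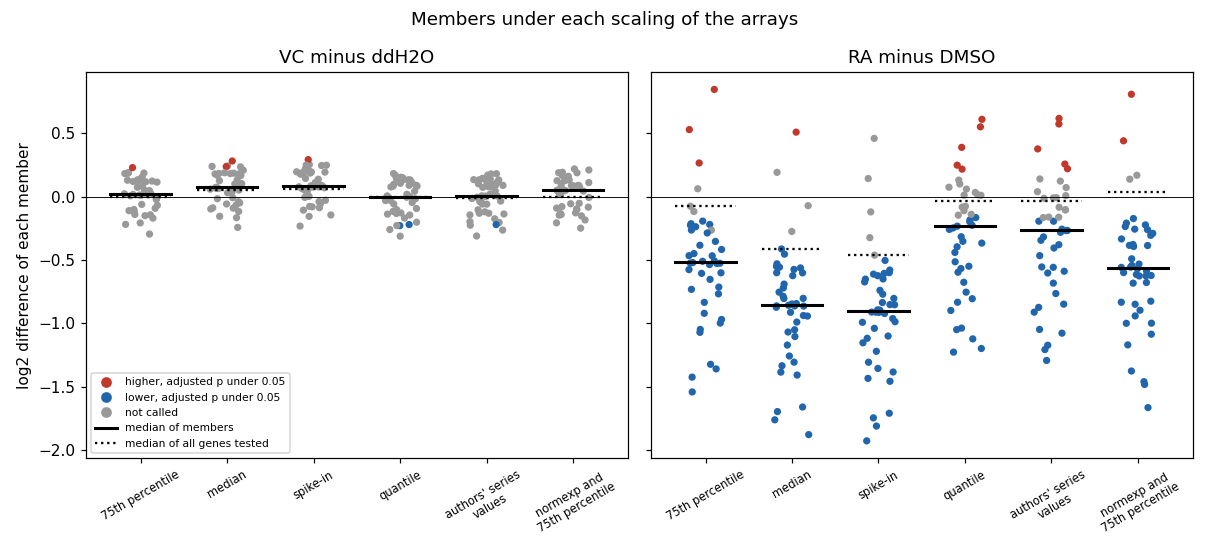
Log2 difference of each mitosis gene (y axis, points coloured by call) under 6 ways of scaling the arrays (x axis), for VC minus ddH2O (left panel) and RA minus DMSO (right panel); solid bars are the medians of the mitosis genes and dotted bars those of all genes tested. In RA the solid bar runs from -0.90 to -0.23 and lies below the dotted bar in each scaling, and in VC it lies between 0.00 and 0.09.

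Set side by side, 35 genes were not called in VC and lower in RA. Cdc20 was called higher in VC and lower in RA, and neither call held under every alternative. The 3 genes called higher in RA, Aurkb, Nuf2 and Cdc25b, were not called in VC, and Kif11, Kif20a, Smc4 and Ncapg were called in neither. None of these 3 rises in RA was called under every scaling. Nuf2 had probes called in opposite directions, and Cdc25b turned negative under median and spike-in scaling. The comparisons share no samples, and since they were made on different array designs the difference between them was not tested.

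Further mitosis genes were counted from lists that hold none of the 44. For RA, of 32 other centromere and kinetochore genes 25 (78.1%) were lower and 4 (12.5%) higher (median -0.64). Among them were Cenpm at -1.59 and Cenpw at -1.54, both of the constitutive centromere network. Cenpb, which binds centromeric satellite DNA, was higher at 0.94, and Mad1l1, the checkpoint partner of Mad2l1, at 0.74. Among 21 other spindle genes 16 (76.2%) were lower and none higher (median -0.51), including the kinesin Kif18a (-1.14) and the bundling protein Nusap1 (-1.10). All of these medians stand beside -0.08 for all genes tested, and the counts beside 42.2% of all genes called lower and 35.8% called higher.

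In the list of 13 entry and exit regulators 9 (69.2%) were lower in RA and 1 (7.69%) was higher (median -0.52). Pkmyt1, the kinase that inhibits Cdk1, differed by -0.99 and Bora, which helps activate Plk1, by -0.74, while Cks1b, a Cdk-binding subunit, was at 0.25. Of 16 APC/C genes 7 (43.8%) were lower and 2 (12.5%) higher (median -0.34), where 42.2% of all genes were lower and 35.8% higher, so the share lower was near that of all genes. Among them were Fbxo5, the APC/C inhibitor Emi1, at -1.44, the subunit Anapc5 at -0.84, and the subunits Anapc2 and Anapc1 at 0.25 and 0.22. The rises of Cks1b, Anapc1 and Anapc2 turned negative and were not called under median and spike-in scaling. Of 16 cohesin and condensin II genes 8 (50%) were lower and 1 (6.25%) higher (median -0.39). Esco2, which acetylates cohesin, was 4.89-fold lower (difference in log2 -2.29, SE 0.11, limma adjusted p = 5.69e-06), Sgo2a, a protector of centromeric cohesin, differed by -1.30, and Stag2, a cohesin subunit, was at 0.28, a sign it lost under median and spike-in scaling.

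Cytokinesis genes outside the 44 moved little as a list in RA: of 11 tested, 3 (27.3%) were lower and 2 (18.2%) higher, with a median of 0.13. Over all genes, 42.2% were called lower and 35.8% higher. Racgap1, the partner of Kif23, differed by -0.54 and Cit, citron kinase, by -0.50, while Septin7 was at 0.45 and Rhoa, the GTPase of the contractile ring, at 0.40. The regulators that act on promoters of late cell cycle genes, 18 tested, had 14 (77.8%) lower and 2 (11.1%) higher (median -0.50). Mybl2, the MYB protein that joins MuvB to activate such genes, was 6.10-fold lower in RA, with a mean log2 signal of 12.84 in RA and 15.45 in DMSO (difference in log2 -2.61, SE 0.06, limma adjusted p = 3.1e-07). E2f2, an E2F activator, differed by -1.34. Lin52, a MuvB subunit, was at 0.45 and Nfyc, a subunit of NF-Y, at 0.40. Rhoa and Lin52 turned negative where all probes of a gene were averaged.

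In VC the same lists held between 0 and 2 calls each, where 6.41% of all genes were called higher and 10.5% lower. The 2 called among 18 promoter regulators (11.1%) were Mybl2, 1.35-fold higher (difference in log2 0.44, SE 0.09, limma adjusted p = 0.0228), and Nfyc at 0.49. Single genes called in other lists were Ccnf, an F-box cyclin, at 0.21 among 12 entry and exit regulators (8.33%), Fzr1, the second APC/C activator, at 0.30 among 16 APC/C genes (6.25%), and Pds5a, a cohesin regulator, at 0.35 among 14 cohesin and condensin II genes (7.14%). Pdcd6ip, an abscission factor, was lower at -0.33 among 11 cytokinesis genes (9.09%). None of 21 spindle genes was called by limma, and 3 had an unadjusted p under 0.05. With slide as a block none of these VC calls was kept: Mybl2 differed by 0.35 (limma adjusted p = 0.103), Nfyc by 0.37, Ccnf by 0.20, Fzr1 by 0.23, Pds5a by 0.26 and Pdcd6ip by -0.32.

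Stem cell, primitive endoderm, neural and fibroblast markers moved with RA by far more than the mitosis genes did, as means over each list. The mean of the blood and endothelium markers did not, though the differences of single markers ran from -1.68 to 2.10. Over all genes, 35.8% were called higher in RA and 42.2% lower. Of 8 stem cell markers 7 were lower in RA and 1 was higher, and their mean deviation was between -3.62 and -3.43 log2 on the RA arrays, against -0.0026 to 0.0036 on the DMSO arrays. All 6 primitive endoderm markers were higher (2.33 to 2.48 on the RA arrays), as were 5 of 6 neural markers tested (1.65 to 1.74) and 6 of 9 fibroblast markers tested (2.55 to 2.73), with 2 of the fibroblast markers lower. Of 4 blood and endothelium markers tested 1 was higher and 2 were lower (-0.22 to -0.19 on the RA arrays, against -0.10 to 0.17 on the DMSO arrays). In VC, where 6.41% of all genes were called higher and 10.5% lower, 3 of 7 stem cell markers were higher. Their mean deviation was 0.16 to 0.23 on the VC arrays, against -0.05 to 0.06 on the ddH2O arrays. Of 6 neural markers 2 were lower and none higher, with a mean deviation of -0.24 to -0.10 on the VC arrays, against -0.02 to 0.02 on the ddH2O arrays. Of 9 fibroblast markers 1 was higher and 2 were lower (-0.34 to 0.07 on the VC arrays, against -0.06 to 0.09 on the ddH2O arrays), and of 6 primitive endoderm markers 1 was lower (-0.09 to 0.01 on the VC arrays, against -0.08 to 0.08 on the ddH2O arrays). None of 3 blood and endothelium markers was called in VC by limma, and 1 had an unadjusted p under 0.05. The part of these changes in the levels of mitosis genes was not tested. All stem cell markers with a probe passed the filter on dim probes in both designs. The share of spots well above background was 67.1% to 70.4% in the design of VC and ddH2O and 61.6% to 66.2% in that of RA and DMSO. Correlations across genes from an RA to a DMSO array were 0.898 to 0.903. Among the RA arrays they were 0.992 to 0.995, and among the DMSO arrays 0.997 to 0.998.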

How the data were processed

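RNA was measured on single-colour Cy3 arrays, 1 per sample. The deposited intensity values are the processed spot signals of Agilent Feature Extraction (version 10.7.3.1 by what the headers state, and 10.7 per the submitters' processing notes). The authors also deposited log2 values by probe in series tables, with a normalization not given in the sources used here. Each column correlated at 0.9996 or above with log2 of that array's scanner signal.

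The log2 signal was scaled to each array's 75th percentile, separately in each design, and shifted by the mean of those percentiles. Control spots and flagged spots were left out and spots of a probe averaged. Accessions were matched to gene symbols through RefSeq (GRCm38.p6), for 27479 of 41174 probes (18749 genes) and 27235 of 55681 probes (20660 genes). A gene was its brightest probe, tested if well above background on at least 3 of 6 arrays. Each comparison was fitted by lmFit and eBayes (limma 3.58.1, R 4.3.3). Benjamini-Hochberg adjusted p-values were taken over all genes tested. For probes they were taken over all that had an accession, matched to a gene or not, and passed the same background filter. The number of arrays limits the precision. The fit was checked on simulated data.

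The mitosis genes and lists were chosen with earlier results of these data known. Genes named with full values were 10 set genes, genes called in VC, the 8 largest falls and rises in RA, called genes against their role group, genes with probes called both ways, and up to 2 rises and 2 falls of each further list. A gene that this rule names is not reported here. The promoters shown were picked after values were seen. Same-numbered samples did not deviate together (r -0.12 to 0.06 in VC and ddH2O, -0.0546 to -0.0027 in RA and DMSO), so numbers were not taken as pairs. Alternatives were other scalings, the series values, normexp background correction, filters, probe averaging, variance models, a threshold of 0.01, replicate and slide blocks, and each sample left out. Normexp (offset 50) took median spot signals and median local backgrounds, without spots over 10 times the array's median background.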

Additional observations from a re-analysis of the deposited data

How the results depend on the processing

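The count of mitosis genes lower in RA, 37, stayed within 1.5 times under all alternatives, from 25 in the authors' series values to 40. Those higher in RA were 1 with median scaling, 0 with spike-in scaling, and 5 after quantile normalization and in the series values, and probes higher were 2 with median and 0 with spike-in scaling. The RA median was -0.85 with median scaling, -0.90 with spike-in scaling, -0.23 after quantile normalization, -0.26 in the series values and -0.56 with normexp. With 1 sample left out, 32 to 37 genes were lower in RA and 3 to 4 higher, with the median from -0.52 to -0.49. Over all genes tested, the share lower in RA was 54.8% with median scaling and 38.5% after quantile normalization, against 42.2%.

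In VC the genes called higher were 2 with median scaling and with probes averaged, 3 with a trended and robust variance, and 0 after quantile normalization, in the series values, with normexp, with no filter, at 0.01, with a slide block and with every sample left out in turn (0 to 0). The genes called lower were 2 after quantile normalization, 1 in the series values and 2 with the trended variance, under which 3 probes were higher. Of all 14531 genes tested, 1422 were called higher with median scaling, 902 with probes averaged and 1542 with the trended variance. The shares of all genes called lower were 9.89% after quantile normalization, 9.85% in the series values and 12.6% with the trended variance. The VC median was 0.0754 with median scaling, 0.0860 with spike-in scaling, -0.0042 after quantile normalization, 0.0044 in the series values, 0.0503 with normexp, 0.0448 with a slide block, and 0.0133 to 0.0415 with 1 sample left out. With the slide block no gene of 14531 was called by limma, and 3848 had an unadjusted p under 0.05.

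With the replicate number as a block, 0 mitosis genes were called higher in VC and 34 were lower and 3 higher in RA, and Cdk1 (limma adjusted p = 0.0561) and Mad2l1 (0.0706) lost their RA calls. The shared numbers do not pair the samples.

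Among the genes named with full values, differences that changed sign were small in most cases. Outside these genes, Kif20a and Smc4 were called lower in RA under some scalings and higher under others. In RA, median and spike-in scaling gave -0.0708 and -0.120 for Cdc25b, -0.0876 and -0.137 for Cks1b, -0.0866 and -0.136 for Anapc2, -0.118 and -0.167 for Anapc1, and -0.0536 and -0.103 for Stag2. Quantile normalization gave 0.0121 for Cdk1, 0.0601 for Mad2l1 and 0.10 for Cdc20, and the series values 0.0079 for Mad2l1 and 0.12 for Cdc20. Averaging probes gave 0.12 for Cdk1, -0.17 for Nuf2, -0.0820 for Rhoa and -0.66 for Lin52, where probes of these genes disagree. In VC, Top2a was 0.0024 with spike-in scaling and from -0.1191 to 0.0064 with 1 sample left out, Ndc80 was -0.0072 with a slide block and from -0.0073 to 0.0462 with 1 sample left out (-0.0045 without ddH2O replicate 3), and Cenpa was 0.0570 with a slide block. The causes of the other shifts were not tested. Of the values for single genes under the alternatives, 893 kept their sign and call, 132 kept the sign and lost the call, 4 gained a call and 25 changed sign.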

Other observations

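A pair of low values stood apart among probes that did not represent their gene. A second probe of Cdc25b read 3.87 on VC replicate 1, against 10.57 and 10.45 on the other VC arrays and 11.02, 10.95 and 10.83 on the ddH2O arrays. A second probe of Cdk1 read 4.41, 3.84 and 4.43 in VC, and 4.18, 4.19 and 1.42 in ddH2O. Neither probe was called.

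The mitosis genes varied more between RA arrays than between DMSO arrays, with a median SD of 0.10 log2 in RA and 0.04 in DMSO over 44 genes. This was not particular to them. Over all genes tested, correlations were 0.992 to 0.995 among the RA arrays and 0.997 to 0.998 among the DMSO arrays. RA replicate 3 was the lowest RA array for 27 of the 44 genes and RA replicate 2 the highest for 25. RA replicate 3 also had the lowest share of spots well above background, 61.6%. With it left out 37 genes were called lower in RA and 4 higher.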
